A study of Mus musculus with 28 samples.

Results

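Hydralazine and hydrochlorothiazide, a vasodilator and a thiazide diuretic that are given together to lower blood pressure, were combined with angiotensin II (Ang II) in 6 of the 28 arrays of the series. These 6 arrays were chosen by their titles and are called Hyd/HCTZ here. They were set against the 4 arrays of wild-type cells that had received Ang II without a second agent, called Ang II here. Each array was hybridised with RNA of spleen dendritic cells from mice 3 months old, and the labels named biological replicates. The groups were wild-type C57BL6/J with Ang II plus Hyd/HCTZ (n = 6), wild-type C57BL6/J with Ang II plus 2-hydroxybenzylamine (2-HOBA, n = 4), mice lacking NOX2 (GP91 Phox) with Ang II (n = 4), wild-type with Ang II alone (n = 4), NOX2 knockout with vehicle (n = 3) and wild-type with vehicle (n = 7). Ang II was therefore shared by both groups compared, and no array held Hyd/HCTZ without Ang II. Doses, duration and cell sort were not stated in the labels, which also did not settle whether mice or isolated cells had received the agents.

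Dendritic cells take up antigen, cut it in proteasomes and lysosomes and show the peptides on MHC molecules to T cells. On sensing danger they mature: they raise costimulatory ligands such as CD86, secrete cytokines such as IL-12 and IL-1, and move along chemokine gradients. Ang II is the effector peptide of the renin-angiotensin system, and in mice it is widely used to raise blood pressure. Hydrochlorothiazide blocks the sodium-chloride cotransporter of the kidney. Hydralazine relaxes arteriolar muscle and is also known to react with aldehydes and to inhibit the HIF prolyl hydroxylases.

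Some known dendritic cell genes, picked by hand, are given first, and their levels do not show how pure the cells were. Of 13 tested markers shared by dendritic cells 11 had higher and 2 had lower means with Hyd/HCTZ. Itgax (CD11c) averaged 9.20 ± 0.16 with Hyd/HCTZ and 8.26 ± 0.11 with Ang II, on a log2 scale on which a difference of 1 is a 2-fold difference (SD, n = 6 and 4). Flt3, the growth factor receptor of dendritic cells, averaged 8.90 ± 0.10 with Hyd/HCTZ and 8.19 ± 0.24 with Ang II. The MHC class II gene H2-Aa averaged 12.07 ± 0.21 with Hyd/HCTZ and 11.26 ± 0.23 with Ang II. Zbtb46, a transcription factor of conventional dendritic cells, averaged 6.06 ± 0.08 with Hyd/HCTZ and 5.55 ± 0.28 with Ang II.

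The Hyd/HCTZ arrays stood apart as a set. Their interquartile ranges of deposited values ran over 3.09 to 3.44, against 2.48 to 2.82 on the Ang II arrays and 1.92 to 3.03 on the remaining arrays. The mean correlation of each array with the rest of its group was 0.981 to 0.988 for Hyd/HCTZ and 0.943 to 0.951 for Ang II. No array of another group lay in this set, so the treatment and the array set cannot be told apart, and this holds for every difference below. Because of the wider spread the arrays were quantile normalized before the fit. The median difference over all tested genes was then 0.03, against 0.32 in the values as deposited.

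Of 10452 tested genes, 895 rose with Hyd/HCTZ (8.56%) and 412 fell (3.94%), in limma with a Benjamini-Hochberg adjusted p below 0.05 and a difference of at least 2-fold. Over both directions this was 12.5% of the tested genes. By the adjusted p alone, 24.1% lay higher and 17.8% lower. The 6 Hyd/HCTZ arrays lay above all 4 Ang II arrays for 21.1% of tested genes and below all of them for 17.3%. They lay above all 22 other arrays of the series for 10.8% and below all 22 for 5.06%. Markers of other cell types moved with the comparison: the mean level of 18 B cell markers was 5.93 to 6.81 on the Hyd/HCTZ arrays and 8.04 to 8.75 on the Ang II arrays. In bulk RNA fewer cells of a type and less RNA per cell cannot be told apart, and the part of the cell makeup in the differences below was not tested. The share of rises among the called genes depended on the scaling: it was 68.5% here, 87.5% in the values as deposited, 60.0% after subtracting the median difference, 92.1% with a common array median and 63.3% with a common median and interquartile range.

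The largest rise of all was in Tnfsf9, the ligand of the T cell costimulatory receptor CD137. It lay between 7.82 and 8.40 (median 7.96) on the 6 Hyd/HCTZ arrays, against 2.88, 3.12, 4.00 and 4.08 on the Ang II arrays. No Hyd/HCTZ array came near the Ang II arrays, and the highest of the 22 other arrays reached 4.59. The fitted difference was 4.49 (SE 0.22, adjusted p = 2.23e-14). Levels below 5 lie under the limit used to choose genes for testing, so where a group mean fell below 5 a difference is also given as "at least", with 5 in place of that mean. For Tnfsf9 it was at least 3.01. Genes were tested if above 5 on 3 or more arrays, so a gene low elsewhere could enter through the Hyd/HCTZ arrays alone. For such genes the separation of the groups, and with it the p-value, is not independent of the filter.

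**Figure D1:**
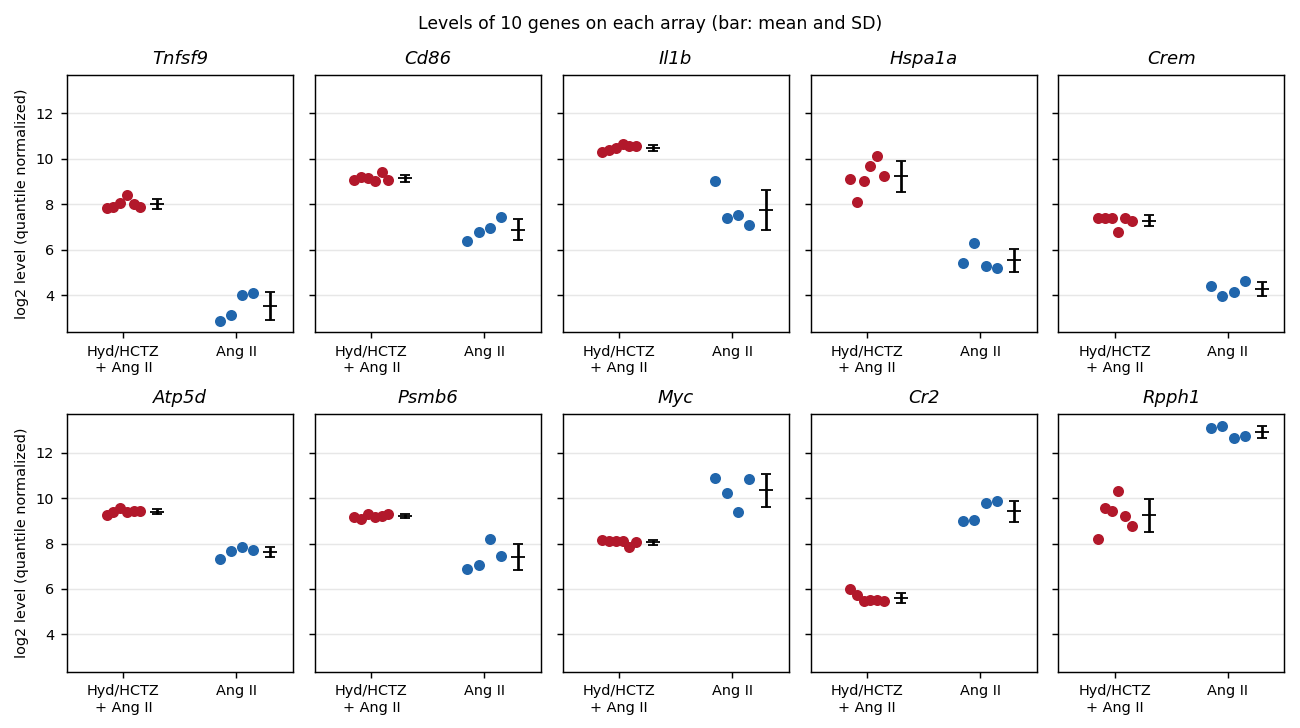
Quantile-normalized log2 level of 10 genes on each array, with the 6 Hyd/HCTZ + Ang II arrays (red) left of the 4 Ang II arrays (blue); bars give the mean and SD. In all 10 panels the groups do not overlap: the Hyd/HCTZ arrays lie above the Ang II arrays in the top row and for Atp5d and Psmb6, and below them for Myc, Cr2 and Rpph1.

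Several costimulatory and coinhibitory molecules rose. Of 19 tested members 8 rose and 0 fell, with a median difference of 0.34 over the list against 0.03 over all tested genes, and 7 lay above all 22 other arrays. The mean level of the list was 7.09 to 7.17 on the Hyd/HCTZ arrays and 6.03 to 6.43 on the Ang II arrays. Cd86, the B7 ligand that engages CD28 on T cells, lay between 9.02 and 9.43 (median 9.11) with Hyd/HCTZ, against 6.36, 6.76, 6.97 and 7.45 with Ang II. The lowest Hyd/HCTZ array exceeded the highest Ang II array by a wide margin, and the difference was 2.26 (SE 0.25, adjusted p = 6.92e-08). Havcr2, which encodes the inhibitory receptor TIM-3, lay between 8.56 and 8.98 (median 8.82) with Hyd/HCTZ, against 6.34, 6.22, 6.04 and 6.69 with Ang II, a difference of 2.47 (adjusted p = 1.31e-10). Pvr (CD155), a ligand of CD226 and TIGIT, differed by 2.40 and by at least 2.00. Cd274, which encodes the coinhibitory ligand PD-L1, did not pass the test: it averaged 7.38 ± 0.08 with Hyd/HCTZ and 7.20 ± 0.47 with Ang II (adjusted p = 0.534). Ccr7, the receptor that guides mature dendritic cells to lymph nodes, differed by 0.89 (adjusted p = 0.00796), short of 2-fold.

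Genes of the IL-1 family moved in both directions. Of 17 tested members 6 rose and 2 fell, and the median difference was 0.55. Il1b, the secreted inflammatory cytokine IL-1β, lay between 10.29 and 10.65 (median 10.52) with Hyd/HCTZ, against 9.03, 7.39, 7.51 and 7.07 with Ang II. Ang II replicate 1 was the highest of its group and still below every Hyd/HCTZ array, and the difference was 2.74 (SE 0.35, adjusted p = 8.32e-07). Il1r2, a decoy receptor that binds IL-1 without signalling, lay between 7.88 and 8.89 (median 8.58) with Hyd/HCTZ, against 5.48, 4.90, 3.87 and 5.77 with Ang II, a difference of 3.48 (SE 0.45, adjusted p = 8.63e-07). Il1a differed by 2.45 and by at least 1.17. Pycard, the adaptor ASC of the inflammasome, rose by 1.67. The falls were the receptor subunits of IL-18: Il18r1 differed by -1.39 and Il18rap by -1.06, with Hyd/HCTZ means of 4.89 and 4.85, against Ang II means of 6.28 and 5.91, at least 1.28 and 0.91 lower. The second call was lost without Hyd/HCTZ replicate 4 (difference -0.96, adjusted p = 0.0132).

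Among 13 tested dendritic cell cytokines 3 rose and 2 fell, with a median difference of 0.19. Il12b, the p40 subunit shared by IL-12 and IL-23, lay between 6.18 and 7.15 (median 6.82) with Hyd/HCTZ, against 4.66, 4.52, 4.27 and 5.05 with Ang II. The difference was 2.13 (SE 0.19, adjusted p = 2.58e-09) and at least 1.75. Its partner in IL-12 went the other way. Il12a, the p35 subunit, lay between 3.86 and 4.17 (median 3.95) with Hyd/HCTZ, against 5.01, 5.20, 4.97 and 4.89 with Ang II, close to the lower limit in both groups, with a difference of -1.04 and a bound of at least 0.02 lower. Its call was lost without Ang II replicate 2 (difference -0.98, adjusted p = 0.00346). Il15, a growth factor of NK and memory T cells, differed by 1.97 and by at least 1.26, and Ebi3, a subunit of IL-27, by 1.40. Ltb, which encodes lymphotoxin beta, fell by 1.36 (adjusted p = 1.45e-06), and this call was lost in the values as deposited and with a common array median (-0.78). Tnf, the gene of TNF itself, did not pass the test, with 6.83 ± 0.15 with Hyd/HCTZ and 6.58 ± 0.03 with Ang II (adjusted p = 0.27).

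Of 24 tested chemokines and chemokine receptors 9 rose and 1 fell, and the median difference was 0.89. Ccl22, a chemokine of mature dendritic cells that attracts T cells through CCR4, lay between 6.33 and 8.05 (median 7.63) with Hyd/HCTZ, against 4.45, 4.66, 5.16 and 5.75 with Ang II. Hyd/HCTZ replicate 4 was its lowest array and remained above the Ang II arrays, and the difference was 2.46 (SE 0.27, adjusted p = 1.02e-07). Xcr1, the XCL1 receptor that marks type 1 conventional dendritic cells, differed by 2.22 (adjusted p = 3.94e-07). Cxcl10, a ligand of CXCR3, differed by 1.81, with 7.39 ± 0.24 with Hyd/HCTZ and 5.57 ± 0.49 with Ang II. Ccr9, a gut-homing receptor, differed by 1.79 and by at least 0.99, and its call was lost against Ang II replicates 3 and 4 alone. Ackr3, an atypical receptor of CXCL12, differed by -1.53, with a Hyd/HCTZ mean of 3.88 and an Ang II mean of 5.40, and was at least 0.40 lower.

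Toll-like receptors and their partners held rises only. Of 22 tested Toll-like receptors and adaptors 5 rose and 0 fell, with a median difference of 0.58. Cd14, a co-receptor for lipopolysaccharide, lay between 7.28 and 8.60 (median 8.44) with Hyd/HCTZ, against 6.05, 4.95, 4.84 and 5.92 with Ang II, a difference of 2.73 (SE 0.38, adjusted p = 2.06e-06). Cd14 is also a monocyte marker: of 17 tested monocyte markers 5 rose and 1 fell, with a median of 0.81 and list means of at least 7.30 with Hyd/HCTZ, against at most 7.26 with Ang II, and the part of these cells was not tested. Tlr3, a sensor of double-stranded RNA, differed by 1.85 and is also a marker of type 1 conventional dendritic cells. Ly96, the MD-2 partner of TLR4, differed by 1.66 and by at least 0.94, and lost its call against Ang II replicates 3 and 4 alone. Tlr13, a mouse sensor of bacterial ribosomal RNA, differed by 1.56.

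C-type lectins and scavenger receptors, which bind sugars and debris for uptake, had the highest share of rises among the lists of function: 12 of 20 tested members rose and 0 fell. The median difference was 1.25, and 19 of 20 members lay higher. The mean level of the list was 6.75 to 7.18 on the Hyd/HCTZ arrays and 5.42 to 6.04 on the Ang II arrays. Clec7a, the beta-glucan receptor Dectin-1, lay between 7.40 and 7.92 (median 7.60) with Hyd/HCTZ, against 5.53, 5.23, 5.84 and 5.77 with Ang II, a difference of 2.04 (SE 0.25, adjusted p = 4.07e-07). Clec4b1, a lectin of the Dectin-2 cluster, differed by 2.16 and by at least 1.28. Clec4a4 (DCIR2), a lectin of type 2 conventional dendritic cells, differed by 2.00 and by at least 1.80. Clec10a, a galactose-type lectin, reached only 5.42 on its highest Hyd/HCTZ array and differed by at least 0.11. Cd209d, one of several mouse relatives of DC-SIGN, was among the largest rises of all genes, with 7.19 ± 0.50 with Hyd/HCTZ and 4.25 ± 0.36 with Ang II, at least 2.19 higher; probe sets of such close relatives can share signal.

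AP-1 factors and other genes of the early response to a stimulus moved in both directions. Of 31 tested AP-1 and other immediate early genes 10 rose and 3 fell, with a median difference of 0.63. Egr2, a zinc finger factor induced by many stimuli, lay between 8.59 and 8.95 (median 8.80) with Hyd/HCTZ, against 5.39, 6.68, 5.35 and 6.49 with Ang II, a difference of 2.79 (SE 0.25, adjusted p = 3.5e-09). Gadd45b, a stress-induced regulator of MAP kinases, differed by 2.61, and Maff, a small Maf factor, by 2.32 and by at least 2.03. Fosl2, the AP-1 subunit Fra-2, differed by 1.62. Myc fell: it lay between 7.86 and 8.15 (median 8.10) with Hyd/HCTZ, against 10.90, 10.24, 9.38 and 10.83 with Ang II. Every Hyd/HCTZ array lay below every other array of the series for Myc, and the difference was -2.27 (SE 0.29, adjusted p = 8.63e-07). Gadd45a, a growth arrest gene, fell by 1.30. This call was lost in the values as deposited, with a common array median (-0.755) and against Ang II replicates 3 and 4 alone (-0.815).

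The rises among immediate early genes rested in part on 1 Ang II array. On Ang II replicate 3 the list averaged 6.49, against 7.60 to 7.84 on the other 3 Ang II arrays and 7.81 to 8.11 on the Hyd/HCTZ arrays. Without it 6 members rose in place of 10. Set against Ang II replicates 1 and 2 alone 5 rose and 3 fell, and against replicates 3 and 4 alone 14 rose and 1 fell. With a common median and interquartile range 6 rose and 4 fell. The other groups of the series had list means of 6.64 to 7.37 with 2-HOBA, 7.13 to 7.33 in knockout cells with Ang II, 7.14 to 7.24 in knockout cells with vehicle and 7.26 to 7.78 in wild-type cells with vehicle.

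Genes that respond to cyclic AMP held 5 rises and 2 falls among 23 tested members, with a median of 0.22 that turned to -0.12 against Ang II replicates 1 and 2 alone. Crem, the CREB-family modulator whose short form ICER is itself induced by cyclic AMP, lay between 6.78 and 7.40 (median 7.38) with Hyd/HCTZ, against 4.38, 3.94, 4.15 and 4.61 with Ang II. The difference was 3.00 (SE 0.20, adjusted p = 1.48e-11) and at least 2.27. The NR4A nuclear receptors rose together. Nr4a3 lay between 8.28 and 8.97 (median 8.83) with Hyd/HCTZ, against 6.44, 6.33, 4.46 and 6.42 with Ang II, a difference of 2.86. Nr4a2 differed by 1.99. Nr4a1 lay between 10.17 and 10.78 (median 10.59) with Hyd/HCTZ, against 9.56, 9.07, 6.49 and 9.50 with Ang II, a difference of 1.91 (SE 0.44, adjusted p = 0.000972). Ang II replicate 3 was the lowest array of its group for all 3 receptors, and their calls were kept without it. The larger fall was that of Pde7a, a cyclic AMP phosphodiesterase, by 1.07. It was lost without Ang II replicate 3 (difference -0.96, adjusted p = 0.0281) or replicate 4 (difference -0.98, adjusted p = 0.027). It was also lost in the values as deposited, with or without subtracting the median difference. With a common array median (-0.54) and against Ang II replicates 1 and 2 alone (-0.76) it was lost too. NF-kB subunits and their feedback genes lay near the background, with 2 rises and 1 fall among 26 tested: the inhibitor Nfkbie differed by 1.58, the coactivator Bcl3 by 1.06 (lost with a common median and interquartile range, 0.93) and the kinase Ikbke by -1.25, at least 0.86 lower.

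**Figure D2:**
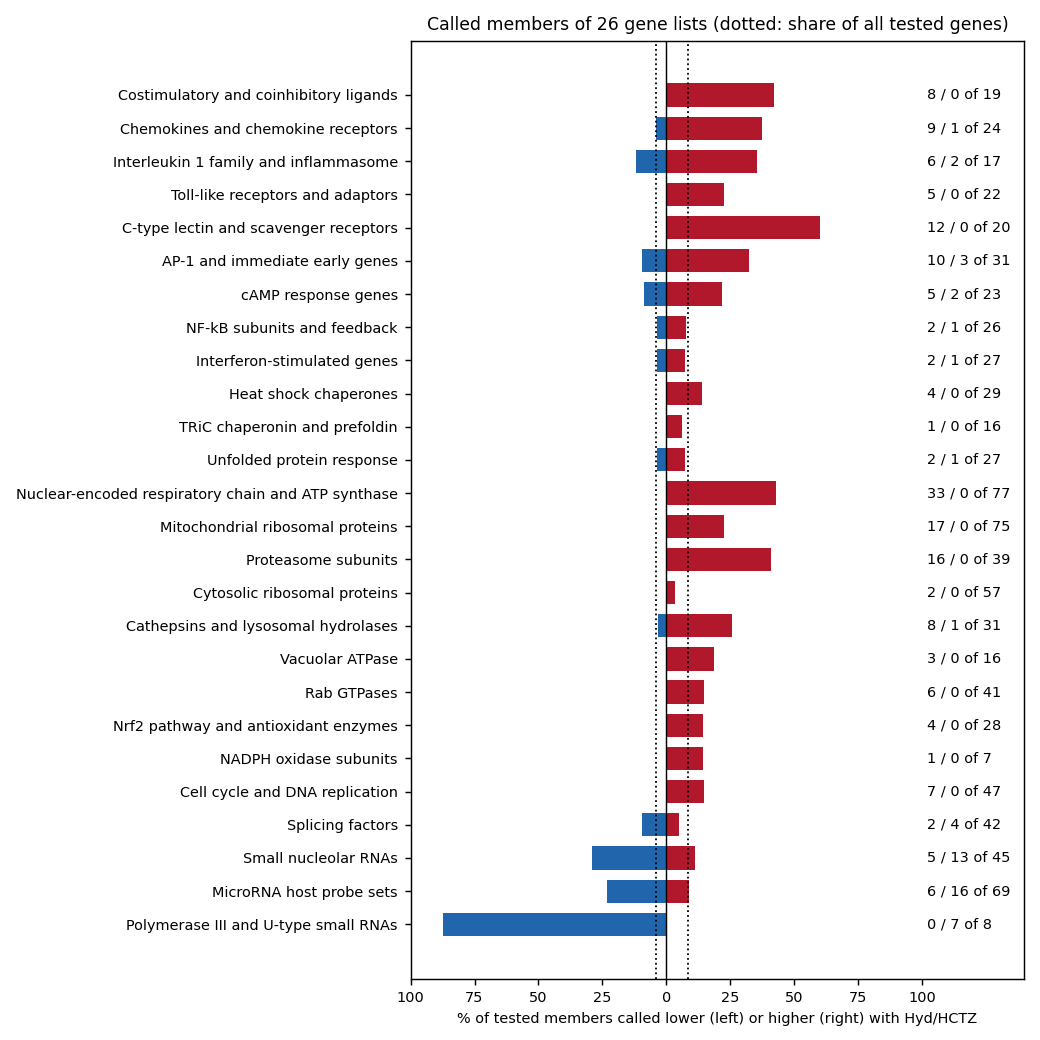
Share of tested members called higher (right, red) or lower (left, blue) with Hyd/HCTZ over Ang II for 26 gene lists, with counts as higher / lower of tested; dotted lines mark the shares among all tested genes, 8.56% higher and 3.94% lower. C-type lectins, respiratory chain, costimulatory and proteasome genes have the longest bars to the right, and polymerase III RNAs the longest to the left.

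Heat shock chaperones were few but included 1 of the largest rises of the comparison. Of 29 tested members 4 rose and 0 fell, and the median difference was 0.31. Hspa1a, the stress-induced chaperone HSP70, lay between 8.12 and 10.14 (median 9.18) with Hyd/HCTZ, against 5.39, 6.28, 5.29 and 5.17 with Ang II. Its spread among the Hyd/HCTZ arrays (SD 0.69) was wide, yet the groups did not overlap, and the difference was 3.69 (SE 0.31, adjusted p = 1.98e-09). Hspa1b is nearly identical in sequence, so signal from the 2 genes may not be separable. Dnajb1, the HSP40 partner of HSP70, lay between 6.83 and 7.55 (median 7.17) with Hyd/HCTZ, against 5.03, 4.83, 5.03 and 5.27 with Ang II, a difference of 2.14 (adjusted p = 8.63e-07). The remaining calls, Dnajb9 with 1.01 and the co-chaperone Bag3 with 1.00, lay at the 2-fold limit. Without Ang II replicate 3 they were 0.77 and 0.86, and the list held 2 rises, as it also did without Hyd/HCTZ replicate 3 or 5. Dnajb9 was further lost without Hyd/HCTZ replicate 1 (0.97) or Ang II replicate 2 (0.93), and Bag3 without Hyd/HCTZ replicate 6 (0.98) or Ang II replicate 4 (0.997). All 16 tested members of the TRiC chaperonin and prefoldin, which fold actin and tubulin, lay higher, with a median of 0.60, but only Pfdn5 was called (1.12), a call lost without Ang II replicate 1 (difference 0.94, adjusted p = 0.00175). Genes of the unfolded protein response lay near the background, with 2 rises and 1 fall among 27. Herpud1, a membrane protein of endoplasmic reticulum degradation, differed by 1.68 and the disulfide isomerase Pdia4 by -1.49, the second lost with a common array median (-0.91).

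The promoters of Hspa1a and Maff are shown as examples of genes that rose and held a match to a known response element. For Hspa1a this was the heat shock element bound by HSF1, and for Maff the cyclic AMP response element bound by CREB. Maff was named with the immediate early genes and does not stand for the cyclic AMP list. Both promoters are from RefSeq (GRCm38.p6) and run from 250 bases before to 50 bases after the gene start, 5′ to 3′ on the gene's strand. The first lies at chr17:34972107-34972406 on the minus strand with a heat shock element in capitals, and the second at chr15:79347270-79347569 on the plus strand with a cyclic AMP response element in capitals, in 1 of 3 listed start windows of Maff.
Hspa1a: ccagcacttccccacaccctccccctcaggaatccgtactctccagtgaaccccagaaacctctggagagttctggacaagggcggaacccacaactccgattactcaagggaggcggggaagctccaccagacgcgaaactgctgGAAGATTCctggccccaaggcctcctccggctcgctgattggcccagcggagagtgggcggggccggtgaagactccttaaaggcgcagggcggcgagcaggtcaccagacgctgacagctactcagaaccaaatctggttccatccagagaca
Maff: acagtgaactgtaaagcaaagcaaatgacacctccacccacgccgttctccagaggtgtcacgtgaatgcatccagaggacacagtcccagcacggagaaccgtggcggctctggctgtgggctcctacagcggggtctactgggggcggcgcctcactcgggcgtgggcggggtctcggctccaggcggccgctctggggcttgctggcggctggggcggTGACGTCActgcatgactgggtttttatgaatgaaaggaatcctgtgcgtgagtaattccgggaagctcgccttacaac
Each motif was searched on both strands, and a match is a description of the letters only. The heat shock element (GAANNTTC or TTCNNGAA) was in 14.03% of the promoters of genes that rose, 14.29% of those of genes that fell and 13.83% of all 8408 promoters matched. The cyclic AMP response element (TGACGTCA) was in 4.58% of the genes that rose, 0.70% of the genes that fell and 3.54% of all. The NF-kB motif (GGG, any 2 bases, then TTTCC) was in 3.47% of the genes that rose, 1.39% of the genes that fell and 2.07% of all. Nr4a1, Nr4a2 and Nr4a3 did not have the cyclic AMP response letters in this window.

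Mitochondrial genes held the largest number of rises of any list. Of 77 tested nuclear genes of the respiratory chain and ATP synthase 33 rose and 0 fell, 75 lay higher, and 51 lay above all 22 other arrays. The median difference was 0.90. The mean level of the list was 8.42 to 8.56 on the Hyd/HCTZ arrays and 7.35 to 7.93 on the Ang II arrays. Atp5d, the delta subunit of ATP synthase, lay between 9.25 and 9.56 (median 9.41) with Hyd/HCTZ, against 7.30, 7.69, 7.83 and 7.72 with Ang II, a difference of 1.77 (SE 0.15, adjusted p = 2.39e-09). Ndufs5, an accessory subunit of complex I, lay between 8.77 and 9.35 (median 8.88) with Hyd/HCTZ, against 7.46, 7.02, 7.78 and 6.63 with Ang II, a difference of 1.74. Ndufs8, an iron-sulfur subunit of complex I, differed by 1.63, with 7.73 ± 0.19 with Hyd/HCTZ and 6.10 ± 0.52 with Ang II. Ndufb6, a further complex I subunit, differed by 1.75, but its Ang II values ran from 5.31 to 7.39 and its call was lost against Ang II replicates 3 and 4 alone (difference 1.15, adjusted p = 0.175). The count of rises fell to 17 against Ang II replicates 3 and 4 alone and to 18 with a common median and interquartile range, with a median difference of 0.59 under that scaling.

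Mitochondrial ribosomal proteins, which make the subunits encoded in mitochondrial DNA, held 17 rises and 0 falls among 75 tested, with 69 members higher and a median of 0.64. Mrpl42 averaged 9.29 ± 0.25 with Hyd/HCTZ and 7.62 ± 0.51 with Ang II, a difference of 1.67 (adjusted p = 2.28e-05). Mrpl14 differed by 1.63 and Mrpl13 by 1.58, both without overlap between the groups. Against Ang II replicates 3 and 4 alone 11 members rose. In the tricarboxylic acid cycle and fatty acid oxidation 6 of 34 tested members rose and 0 fell, with a median of 0.54. Slc25a20, which carries acylcarnitines into mitochondria, differed by 1.81 and by at least 1.53. Idh1, the cytosolic isocitrate dehydrogenase, differed by 1.28, a call lost without Ang II replicate 2 (difference 0.92, adjusted p = 0.0649). Mdh2, the mitochondrial malate dehydrogenase, differed by 1.25, with 10.54 ± 0.09 with Hyd/HCTZ and 9.29 ± 0.34 with Ang II, a call lost with a common median and interquartile range (0.55). The list held 3 rises with a common median and interquartile range and 10 against Ang II replicates 1 and 2 alone.

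Some proteasome subunits rose. Of 39 tested members 16 rose and 0 fell, 35 lay higher, and 23 lay above all 22 other arrays, with a median of 0.86. The mean level of the list was 8.09 to 8.24 on the Hyd/HCTZ arrays and 7.20 to 7.67 on the Ang II arrays. Psmb6, a catalytic subunit of the standard core particle, lay between 9.07 and 9.32 (median 9.20) with Hyd/HCTZ, against 6.90, 7.06, 8.21 and 7.44 with Ang II, a difference of 1.80 (SE 0.21, adjusted p = 2.61e-07). Psmb3, a structural beta subunit, differed by 1.65 and Psma5, an alpha subunit, by 1.58. Psmb9, which replaces Psmb6 in the immunoproteasome, differed by 1.51 (adjusted p = 6.82e-07), a call lost with a common median and interquartile range. Of 16 tested genes of MHC class I presentation only Psmb9 and Psme2, a subunit of the PA28 activator (1.30), rose, and 0 fell. The proteasome count was 9 against Ang II replicates 3 and 4 alone and 9 with a common median and interquartile range.

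The protein-making machinery of the cytosol moved less. Of 57 tested cytosolic ribosomal proteins 2 rose and 0 fell, with a median of 0.18 that turned to -0.76 with a common median and interquartile range, under which 2 rose and 18 fell. Rpl14 differed by 1.73, with 8.91 ± 0.25 with Hyd/HCTZ and 7.18 ± 0.28 with Ang II, and Rps27l, a p53-induced relative of a ribosomal protein, by 1.56. Among 32 translation factors 2 rose, both subunits of initiation factor eIF3: Eif3m differed by 2.05 and Eif3k by 1.13. The call of Eif3k was lost with a common median and interquartile range (0.45) and against Ang II replicates 3 and 4 alone (0.88). Of 17 tested genes of the ATF4 response and amino acid transport 3 rose and 0 fell, led by Mthfd2, a mitochondrial enzyme of folate metabolism, with 1.76 and at least 1.72.

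Lysosomal genes rose in part. Of 31 tested cathepsins and hydrolases 8 rose and 1 fell, with a median of 0.54; with a common median and interquartile range 5 rose and 1 fell. Cd68, a lysosomal membrane glycoprotein, lay between 9.27 and 9.98 (median 9.74) with Hyd/HCTZ, against 8.19, 7.71, 7.73 and 8.12 with Ang II, a difference of 1.75 (adjusted p = 7.56e-08). Cst3, the cathepsin inhibitor cystatin C, differed by 1.74, with 11.80 ± 0.23 with Hyd/HCTZ and 10.06 ± 0.46 with Ang II, a call lost with a common median and interquartile range. Cd68 is also a marker of red pulp macrophages, whose list averaged 7.23 to 8.35 on the Hyd/HCTZ arrays and 6.65 to 7.44 on the Ang II arrays, and the part of these cells was not tested. Ctse, an endosomal aspartic protease, fell: it lay between 5.52 and 6.25 (median 5.94) with Hyd/HCTZ, against 8.14, 8.42, 9.61 and 8.61 with Ang II, a difference of -2.77 (SE 0.40, adjusted p = 3.65e-06). Of 15 tested genes of MHC class II presentation 2 rose and 0 fell: Ifi30, the lysosomal thiol reductase GILT, differed by 1.70 (adjusted p = 1.87e-08) and H2-DMa, a chain of the peptide-loading chaperone, by 1.55. The median of that list was 0.29 and turned to -0.24 with a common median and interquartile range.

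Vesicle acidification and traffic followed in part. Of 16 tested vacuolar ATPase genes 3 rose and 0 fell, with a median of 0.64, but 0 rose against Ang II replicates 3 and 4 alone and 1 rose with a common median and interquartile range. Atp6ap2, an accessory subunit that is also the prorenin receptor, lay between 6.68 and 6.78 (median 6.74) with Hyd/HCTZ, against 5.05, 5.05, 5.68 and 5.82 with Ang II, a difference of 1.34 (adjusted p = 0.00044), a call lost against Ang II replicates 3 and 4 alone. Of 41 tested Rab GTPases, the switches of vesicle traffic, 6 rose and 0 fell, with a median of 0.25. Rab7b, a late endosomal Rab, lay between 7.38 and 7.76 (median 7.63) with Hyd/HCTZ, against 5.41, 4.93, 5.48 and 5.19 with Ang II, a difference of 2.33 (adjusted p = 5.48e-09). Rab32, a Rab of lysosome-related organelles, differed by 1.88. Autophagy genes held 5 rises and 1 fall among 32, with a median of 0.01: Map1lc3b (LC3B) differed by 1.26, and Pik3r4, a scaffold of the class III PI3-kinase complex, by -1.64.

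Redox genes rose singly. Of 28 tested genes of the Nrf2 pathway and antioxidant enzymes 4 rose and 0 fell, with a median of 0.48, and 7 rose against Ang II replicates 1 and 2 alone. Nfe2l2, the gene of Nrf2 itself, lay between 8.27 and 8.80 (median 8.65) with Hyd/HCTZ, against 6.95, 6.83, 7.36 and 6.95 with Ang II, a difference of 1.60 (SE 0.16, adjusted p = 2.2e-08). Sod2, the mitochondrial superoxide dismutase, differed by 1.75 and by at least 1.11, and Taldo1, an enzyme of the pentose phosphate pathway, by 1.74. Hmox1, the haem oxygenase gene under Nrf2 control, did not pass the test, with 10.45 ± 0.59 with Hyd/HCTZ and 9.97 ± 0.42 with Ang II (adjusted p = 0.198). Of 20 peroxiredoxins and thioredoxins 3 rose and 1 fell, and 1 rose without Ang II replicate 2. Glrx, a glutaredoxin, differed by 1.86, and Txnip, the thioredoxin-binding protein, by -1.13. The Txnip call was lost in the values as deposited, also after subtracting the median difference (-0.955), and with a common array median (-0.53). It was lost against Ang II replicates 1 and 2 alone too (-0.91). Metallothioneins, which bind zinc and copper, were listed with iron and haem genes, where 4 of 27 rose and 0 fell: Mt2 differed by 2.14 and by at least 1.42, and Mt1 lay between 8.59 and 8.97 (median 8.69) with Hyd/HCTZ, against 7.09, 7.18, 6.99 and 7.18 with Ang II, a difference of 1.64. Flvcr1, a haem exporter, differed by 2.16 and by at least 1.96.

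Genes of lipid mediators and aldehyde enzymes held few rises. Ptgs2, the inducible cyclooxygenase COX-2, lay between 9.54 and 9.89 (median 9.70) with Hyd/HCTZ, against 7.88, 7.30, 5.41 and 7.80 with Ang II. The Hyd/HCTZ arrays lay close together and the Ang II arrays were spread, with replicate 3 lowest, and the difference was 2.63 (SE 0.50, adjusted p = 0.000128). Alox5ap, which presents arachidonic acid to 5-lipoxygenase, differed by 1.53, a call lost with a common median and interquartile range (0.97). Of 15 tested genes of leukotriene and prostaglandin synthesis 3 rose and 0 fell, and 5 rose without Hyd/HCTZ replicate 4 or without Ang II replicate 4. Of 16 aldehyde-detoxifying genes 2 rose, the carbonyl reductase Cbr3 (1.41) and the aldehyde dehydrogenase Aldh9a1 (1.19), and 0 fell. This was near the background of 8.56% rises over all tested genes.

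Most subunits of the oxidase that is knocked out elsewhere in the series did not pass the test. Of 7 tested NADPH oxidase subunits 1 rose and 0 fell, with a median of 0.12 that turned to -0.24 with a common median and interquartile range. Cyba, the p22phox subunit of the membrane complex, lay between 9.29 and 9.76 (median 9.50) with Hyd/HCTZ, against 8.02, 8.63, 8.64 and 8.13 with Ang II, a difference of 1.15 (adjusted p = 0.000504), and lost its call under that scaling. Cybb, the NOX2 subunit itself, lay between 8.79 and 9.33 (median 8.97) with Hyd/HCTZ, against 8.72, 8.60, 8.91 and 9.29 with Ang II, a difference of 0.12 (adjusted p = 0.77). The cytosolic subunits Ncf1 and Ncf4 differed by 0.19 and 0.13, and the GTPases Rac1 and Rac2 by 0.12 and -0.43, with adjusted p = 0.293, 0.485, 0.439 and 0.0585.

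Of the renin-angiotensin genes and targets of the added drugs 13 were tested, of which 3 rose and 1 fell; against Ang II replicates 3 and 4 alone 1 rose and 1 fell. Slc12a2, a sodium-potassium-chloride cotransporter related to the thiazide target, differed by 1.35 (adjusted p = 0.0103), a call lost against Ang II replicates 3 and 4 alone. Car2, a carbonic anhydrase, differed by -1.55, but its Ang II arrays held 5.94, 6.15, 8.66 and 8.23, and the call was lost without replicate 3 (difference -1.08, adjusted p = 0.0766) or replicate 4 (difference -1.22, adjusted p = 0.059). Car2 is also an erythroid marker. The Ang II receptor gene Agtr1a reached no more than 5.13 on any array as deposited, the HIF prolyl hydroxylase gene Egln3 no more than 4.34 and the thiazide target gene Slc12a3 (named after its values were seen) no more than 4.85, and none was tested. HIF targets and glycolysis genes lay near the background of 8.56% rises over all tested genes, with 3 rises and 0 falls among 31. The largest was that of the transcriptional repressor Bhlhe40 (1.40), and 5 rose without Hyd/HCTZ replicate 4.

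Small RNAs held more falls than rises, which for microRNA probe sets turned round with a common array median. Of 8 tested polymerase III and U-type RNAs 7 fell and 0 rose, with a median of -1.47. Rpph1, the RNA subunit of RNase P, lay between 8.19 and 10.30 (median 9.32) with Hyd/HCTZ, against 13.07, 13.19, 12.63 and 12.72 with Ang II. Even the highest Hyd/HCTZ array was far below the lowest Ang II array, and the difference was -3.66 (SE 0.24, adjusted p = 1.48e-11). Rmrp, the RNA subunit of RNase MRP, lay between 7.22 and 9.50 (median 8.76) with Hyd/HCTZ, against 12.48, 12.51, 11.45 and 10.54 with Ang II, a difference of -3.13. Rnu3a, a U3 RNA of ribosomal RNA processing with close copies in the genome, spanned 6.67 to 11.80 with Hyd/HCTZ, against 12.35 to 12.70 with Ang II. Of 45 small nucleolar RNAs 13 fell and 5 rose (7 fell and 4 rose against Ang II replicates 3 and 4 alone): Snord49b differed by -3.06 and Snord14e by 3.58. Of 69 tested microRNA probe sets 16 fell and 6 rose, but with a common array median 7 fell and 10 rose. Mir6516 differed by -3.12, and Mir18 and Mir17, of 1 shared cluster, by 2.20 and 1.87, both bounded below 1 (0.28 and 0.80) and lowest on Hyd/HCTZ replicate 4. By gene type 873 of 10021 tested protein-coding genes rose and 347 fell.

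Among 42 tested splicing factors 4 fell and 2 rose, with a median of -0.11. With a common array median 3 fell and 10 rose and the median turned to 0.45, and with a common median and interquartile range 7 fell and 1 rose. Rbm25, an SR-related regulator of splice site choice, lay between 7.34 and 9.01 (median 7.81) with Hyd/HCTZ, against 11.50, 10.97, 10.30 and 9.86 with Ang II, a difference of -2.72 (SE 0.36, adjusted p = 1.51e-06). Tra2b, an SR-like activator, differed by -1.63, with 8.59 ± 0.15 with Hyd/HCTZ and 10.22 ± 0.51 with Ang II. Snrnp70, the 70K protein of the U1 particle, differed by -1.62. The rises were Snrpd2, a core Sm protein (1.43), and Sf3b4, a subunit of the U2 particle (1.34). Snrpd2 lost its call with a common median and interquartile range (0.83). Chd7, a chromatin remodeller outside these lists, was among the largest falls, with 7.36 ± 0.25 with Hyd/HCTZ and 9.97 ± 0.66 with Ang II.

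Called genes differed in length by direction. The median genomic span of the protein-coding genes that rose was 13.23 kb, that of the genes that fell 28.78 kb and that of all tested 21.98 kb. With the genes divided by span into 5 equal classes, from short to long, 13.8%, 10.4%, 9.0%, 5.8% and 4.5% rose. The share that fell was 3.4%, 2.9%, 2.5%, 3.2% and 5.2% in the same order. Respiratory chain genes had a median span of 7.13 kb, mitochondrial ribosomal proteins 7.75 kb and proteasome subunits 11.57 kb, each below the median of all tested genes. Cytosolic ribosomal proteins, at 3.22 kb, were shorter still and held 2 rises. The part of gene span in these counts was not tested.

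**Figure D3:**
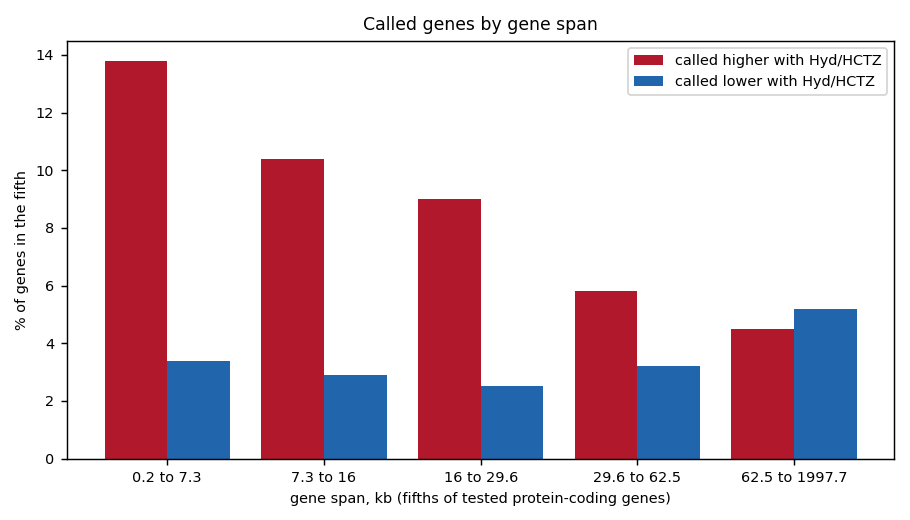
Percent of tested protein-coding genes called higher (red, left bar) and lower (blue, right bar) with Hyd/HCTZ over Ang II in 5 equal classes of genomic span in kb. The share called higher is 13.8% in the class of the shortest genes and 4.5% in that of the longest, and the share called lower is largest, 5.2%, in the class of the longest.

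Lymphocyte markers lay lower with Hyd/HCTZ. B cell markers had lower means with Hyd/HCTZ in all 18 tested members, of which 16 fell and 14 lay below all 22 other arrays, with a median of -1.90. The list means given above were the lowest of the series, and in the 4 other groups no array lay under 7.30. Cr2 (CD21), a complement receptor of mature B cells, lay between 5.45 and 5.98 (median 5.51) with Hyd/HCTZ, against 9.01, 9.04, 9.78 and 9.87 with Ang II, a difference of -3.82 (SE 0.35, adjusted p = 5.48e-09). Ebf1, a B lineage transcription factor, lay between 4.45 and 5.56 (median 4.88) with Hyd/HCTZ, against 8.03, 7.99, 7.83 and 7.91 with Ang II, a fitted difference of -3.00 and at least 2.94 in size. Fcer2a (CD23) differed by -3.00 and Pax5, the B cell identity factor, by -2.63.

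The marker lists of T cells, NK cells, erythroid cells, stromal and endothelial cells and neutrophils had medians below 0 too. Of 16 T cell markers 7 fell and 0 rose, with a median of -0.88 and list means of 5.14 to 5.48 with Hyd/HCTZ, against 6.14 to 6.45 with Ang II. Lef1, a T cell transcription factor, differed by -1.87 and by at least 1.72 in size, and Lat, an adaptor of the T cell receptor, by -1.75. Of 15 NK cell markers 2 fell, the granzyme gene Gzma (-1.66) and the NK receptor gene Klra8 (-1.92), and 0 rose, with list means of 6.19 to 6.94 with Hyd/HCTZ, against 6.82 to 7.64 with Ang II, which overlapped. With a common array median 3 NK cell markers rose and 2 fell, and against Ang II replicates 1 and 2 alone 2 rose and 2 fell. Of 11 erythroid markers 6 fell and 0 rose, but against Ang II replicates 1 and 2 alone 2 fell. Their list means were 4.57 to 4.89 with Hyd/HCTZ, against 5.21 to 6.55 with Ang II. Slc4a1, the anion exchanger of red cells, lay between 4.86 and 5.34 (median 5.16) with Hyd/HCTZ, against 6.55, 7.27, 8.30 and 8.35 with Ang II. Of 12 stromal and endothelial markers 5 fell and 0 rose, and 3 fell against Ang II replicates 3 and 4 alone; Igfbp7, a secreted endothelial protein, differed by -2.54. The stromal list averaged 4.88 to 5.23 with Hyd/HCTZ, against 5.67 to 6.34 with Ang II. Of 12 neutrophil markers 4 fell and 0 rose, and only 1 fell without Ang II replicate 3, and 2 without Hyd/HCTZ replicate 1, Hyd/HCTZ replicate 2 or Ang II replicate 1. The neutrophil list averaged 5.23 to 6.19 with Hyd/HCTZ, against 6.03 to 7.49 with Ang II, and overlapped. Ngp, a neutrophil granule protein, spanned 3.82 to 6.40 with Hyd/HCTZ, against 7.15, 6.68, 8.31 and 6.01 with Ang II, at least 2.04 lower.

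The lists of dendritic cell and macrophage markers had medians above 0. Of 18 markers of type 1 conventional dendritic cells, which cross-present antigen to CD8 T cells, 9 rose and 0 fell and 9 lay above all 22 other arrays, with a median of 1.00. The list averaged 7.56 to 7.83 on the Hyd/HCTZ arrays and 6.47 to 7.06 on the Ang II arrays. Against Ang II replicates 3 and 4 alone 5 rose and 1 fell. Xcr1 lay between 6.97 and 7.50 (median 7.26) with Hyd/HCTZ, against 4.42, 4.38, 5.38 and 5.91 with Ang II. Ifi205, an interferon-inducible gene of this subset, differed by 1.86 and Gcsam by 1.80. Irf8, the transcription factor that this subset needs, averaged 8.85 ± 0.13 with Hyd/HCTZ and 8.60 ± 0.15 with Ang II and did not pass the test (adjusted p = 0.173).

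Of 16 markers of type 2 conventional dendritic cells 6 rose and 2 fell, with a median of 0.78. Cd209a, a mouse relative of DC-SIGN, differed by 1.69, and S100a4, a calcium-binding protein, by 1.67, whereas the Notch target Dtx1 differed by -1.41, a call lost in the values as deposited (-0.996) and with a common array median (-0.89). Irf4, a factor of this subset, did not pass the test (0.66, adjusted p = 0.147). Of 13 markers shared by dendritic cells 0 passed both limits in limma, 9 lay higher and 1 lower by the adjusted p alone, and the median was 0.55. Of 16 markers of mature dendritic cells 4 rose and 0 fell, and 8 rose without Hyd/HCTZ replicate 4. Their list mean was 7.34 to 8.12 with Hyd/HCTZ, against 6.93 to 7.37 with Ang II. Cd83, a surface marker of maturation, lay between 10.26 and 10.82 (median 10.56) with Hyd/HCTZ, against 8.06, 8.72, 8.67 and 9.14 with Ang II, a difference of 1.90 (adjusted p = 3.02e-08). Fscn1, an actin-bundling protein of mature dendritic cells, was 5.97 on Hyd/HCTZ replicate 4 and between 7.27 and 7.99 on the other 5 arrays, against 5.27 to 6.63 with Ang II. Of 19 red pulp macrophage markers 8 rose and 0 fell, but 5 rose without Ang II replicate 3 and 3 against Ang II replicates 3 and 4 alone; the complement gene C1qa differed by 1.86, a call lost against Ang II replicates 3 and 4 alone (difference 1.23, adjusted p = 0.0691).

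**Figure D4:**
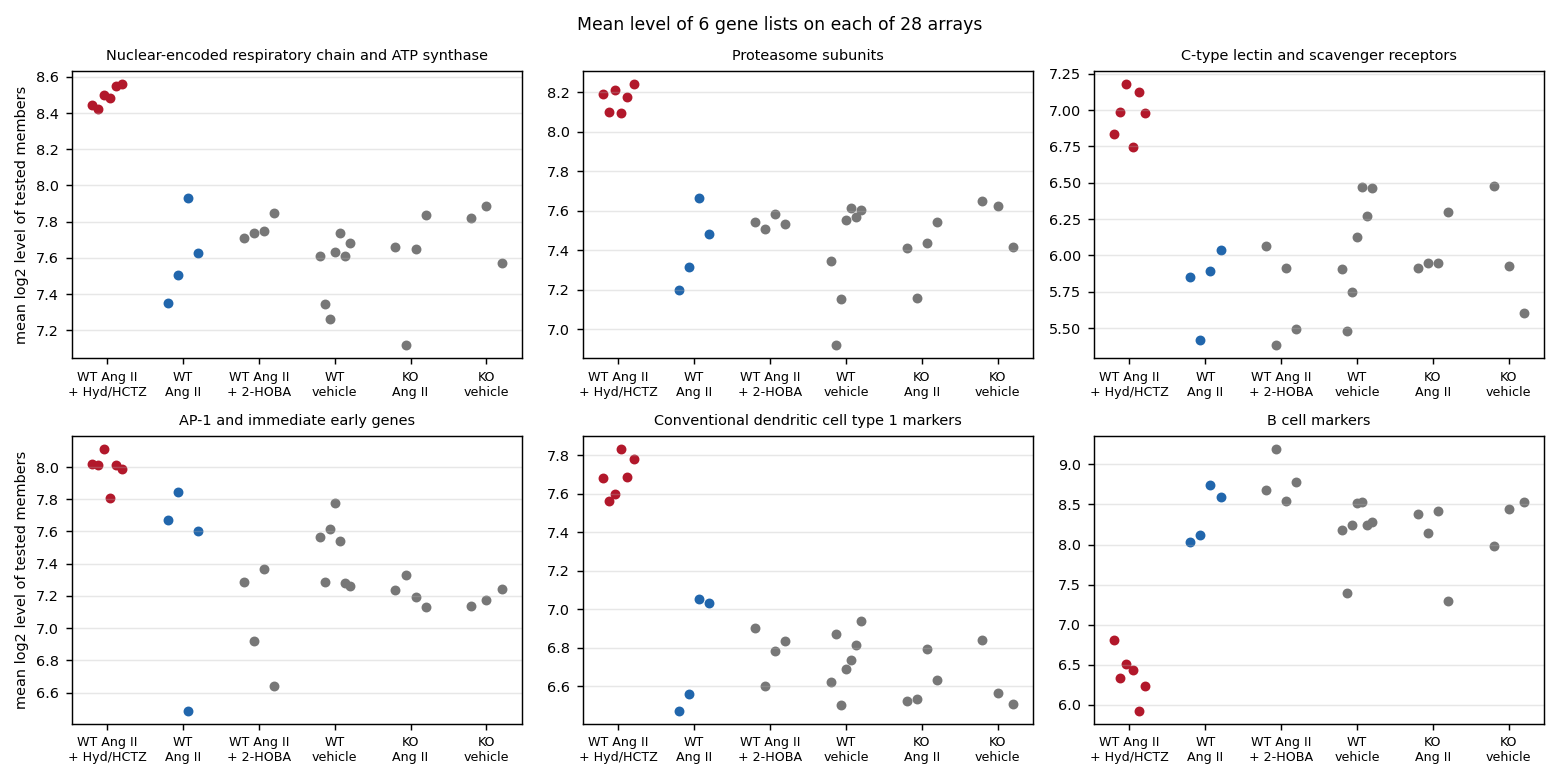
Mean log2 level of the tested members of 6 gene lists on each of the 28 arrays, with the Hyd/HCTZ arrays (red) first, the Ang II arrays (blue) next and the other 4 groups in grey. In all panels but that of the immediate early genes the 6 Hyd/HCTZ arrays lie outside the range of the 22 others, above it for 4 lists and below it for B cell markers.

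Across the 6 groups the Hyd/HCTZ arrays lay beyond every other array for most called genes. Of the 895 genes that rose 668 lay above all 22 others, and of the 412 that fell 237 lay below all 22. Over all tested genes 10.8% lay above and 5.06% below all 22. The called genes were chosen by their difference from Ang II, and some could pass the filter through the Hyd/HCTZ arrays alone. These counts are therefore not independent of that choice. Cd86 averaged 9.15 with Hyd/HCTZ, against 7.14 with 2-HOBA, 6.56 in knockout cells with Ang II, 6.89 with Ang II, 6.88 in knockout cells with vehicle and 7.05 in wild-type cells with vehicle. Atp5d averaged 9.41 with Hyd/HCTZ, against 7.78 with 2-HOBA, 7.49 in knockout cells with Ang II, 7.64 with Ang II, 7.95 in knockout cells with vehicle and 7.48 in wild-type cells with vehicle. Myc averaged 8.06 with Hyd/HCTZ, against 9.96 with 2-HOBA, 9.73 in knockout cells with Ang II, 10.34 with Ang II, 9.46 in knockout cells with vehicle and 10.09 in wild-type cells with vehicle. The Hyd/HCTZ mean lay outside the range of the other 5 means for all 3 genes.

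Within the Hyd/HCTZ group replicate 4 differed from the rest. For 451 of the tested genes (4.31%) its value stood far from the other 5 arrays by Dixon's criterion, which sets the gap to the nearest array against the range of the group, with 321 below and 130 above them, against 43 to 98 genes for each other Hyd/HCTZ array and 57 to 143 for each Ang II array. It was low for several genes that rose with Hyd/HCTZ: Crem was 6.78 on replicate 4 and 7.28 to 7.40 on the other 5, and Pvr was 6.15 on replicate 4 and 7.08 to 7.34 on the other 5. Neutrophil and stromal genes were high on it: Ngp was 6.40 on replicate 4 and no more than 4.49 on the other 5, and Sparc, a matrix protein, was 6.27 on replicate 4 and no more than 4.85 on the other 5. Sparc fell by 2.15 against Ang II and by at least 2.12. Without replicate 4 the calls of Crem, Pvr, Ngp and Sparc were kept.

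**Figure D5:**
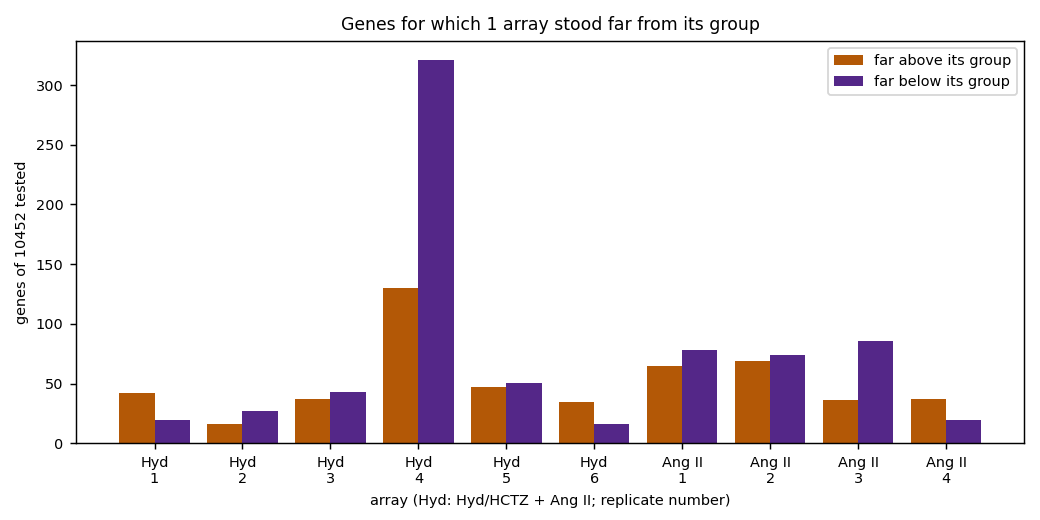
Number of the 10452 tested genes for which 1 array lay far above (orange) or far below (purple) the other arrays of its group, for the 6 Hyd/HCTZ arrays (left) and the 4 Ang II arrays (right). Hyd/HCTZ replicate 4 reaches 321 genes below and 130 above.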

How the data were processed

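RNA of spleen dendritic cells had been extracted with Trizol, labelled as biotin cRNA and hybridised to Affymetrix arrays, per the labels' protocols. The deposited table holds 1 log2 expression value per probe set and array, made with RMA in Partek 6.6 per the submitters' processing notes, and its values run from 0.90 to 14.34. RMA has already subtracted background, so no probe set is marked as detected or undetected, and precision is limited by how many arrays there are. Of 35556 probe sets 21789 carried 1 gene symbol in the platform annotation, 1621 several and 12146 none, and only the first kind was named. RefSeq (GRCm38.p6) was matched by gene ID for 21698 of them.

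The arrays were quantile normalized. Each gene was represented by its brightest probe set (mean of 28 arrays), and the 10452 genes that exceeded 5 on 3 or more arrays entered limma 3.58.1 (R 4.3.3), with 1 mean for each of the 6 groups. A gene was called with a Benjamini-Hochberg adjusted p below 0.05 over all tested genes and a log2 difference of at least 1. The labels call the arrays biological replicates and give no animal or culture, so the p-values measure the spread between these samples. For each gene this spread was pooled within all 6 groups of the 28 arrays, not taken from the groups compared alone. Alternatives covered the scaling, the filter, the probe sets, the call rule, the arrays fitted, array weights, the replicate block and each replicate left out. The procedure was tested on simulated data.

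The members and gene lists were chosen with earlier results of these data known. Named genes are, per list with at least 5 tested members, up to 4 of the largest called rises and 3 of the largest called falls, the 12 largest of each direction among all genes, and genes fixed by function. Flt3, Itgax and H2-Aa fall outside this rule and were added by hand as dendritic cell genes. Lists are described by counts and medians without a test.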

Additional observations from a re-analysis of the deposited data

Results flagged for a closer look

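Single arrays that stood far from the others of their group were sought with Dixon's criterion in both groups for each gene named in the text. They were found in 29 of 300 groups of values (9.7%), where chance gives about 1 in 20, and 22 of them were in the Hyd/HCTZ group. All values are quantile-normalized log2 levels. Most were on Hyd/HCTZ replicate 4, and no cause was tested.

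Hyd/HCTZ replicate 4 lay below the other 5 arrays of its group for genes of maturation and signalling. Fscn1 was 5.97 there, Ccr7 8.02, Icam1 7.08, Pvr 6.15 and Tnf 6.54. The stimulus-induced genes Crem and Nr4a3 were 6.78 and 8.28 on the same array. Its microRNA values were low too, with 3.96 for Mir17 and 3.40 for Mir18. It was also low for Dnajb9 with 7.62, Nfe2l2 with 8.27, Idh1 with 6.05, Idi1 with 5.58, Slc12a2 with 6.63 and Rac1 with 9.10.

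The same array lay above its group for Ngp with 6.40, Sparc with 6.27, Ltb with 7.87, S100a4 with 11.02 and Snord14e with 10.89. On other Hyd/HCTZ arrays Aldh9a1 was high on replicate 3 with 6.96, and Myc was low on replicate 5 with 7.86, farther from the Ang II arrays than the rest.

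In the Ang II group replicate 3 was low for Nr4a1 with 6.49 and Nr4a3 with 4.46 and high for Snord14e with 8.19. Replicate 2 was low for Idh1 with 4.49 and Clec10a with 2.00 and high for Zbtb46 with 5.97. Replicate 4 was low for Bcl3 with 6.80.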

How the results depend on the processing

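No called difference of a named gene changed its direction under the 25 alternatives. Of 219 called named genes 136 kept their call under all of them and 83 lost it under at least 1, most often with limma's treat test against a 1.5-fold change (59 genes) and against Ang II replicates 3 and 4 alone (44 genes). The 895 rises and 412 falls moved by more than 1.5 times under these settings. The values as deposited gave 1876 rises and 267 falls, and after subtraction of their median difference 657 falls. A common array median gave 2294 rises and 198 falls, and under it the median difference of all tested genes was 0.43. A filter above 7 gave 566 rises and 268 falls, with fewer genes tested. The treat test gave 504 and 244, and the adjusted p alone 2519 and 1857. Against Ang II replicates 1 and 2 alone 704 genes fell. The number of genes outside all 22 other arrays, 1130 above and 529 below, was 2110 and 192 in the values as deposited, and 2418 and 125 with a common array median. The cause of these shifts was not tested. The median difference in 5 equal classes of level ran over -0.004 to 0.518 as deposited and -0.02 to 0.05 after quantile normalization. It was not computed by class with a common array median. Leaving out 1 array at a time gave 822 to 1018 rises and 361 to 495 falls. With the replicate number as a block 770 genes rose and 362 fell. Under this block 22 named genes lost their call. Deviations from the group means of same-numbered Hyd/HCTZ and Ang II arrays correlated at -0.05, 0.10, 0.03 and -0.22. Those of arrays with unlike numbers correlated at -0.27 to 0.13. Whether same-numbered arrays shared more than a number was not settled. Of 65 lists, 14 medians changed sign under some setting, and those of the cyclic AMP, ribosomal, splicing, oxidase and MHC class II lists are given above. The medians of interferon-stimulated genes (-0.16 to 0.41), autophagy genes (-0.02 to 0.41) and renin-angiotensin and drug target genes (-0.01 to 0.83) also crossed 0. Falls were less frequent among dim genes than among bright ones, and the part of level and of the filter in this was not tested. In the dimmest of the 5 classes of level 9.13% rose and 1.58% fell, and in the brightest 10.33% rose and 8.18% fell.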

Other observations

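Genes of the cell cycle and DNA replication held 7 rises and 0 falls among 47 tested members, with a median of 0.56; 12 rose against Ang II replicates 1 and 2 alone and 4 against replicates 3 and 4 alone. Bub1, a kinase of the spindle checkpoint, lay between 5.15 and 5.52 (median 5.31) with Hyd/HCTZ, against 2.87, 3.59, 4.24 and 3.41 with Ang II, a difference of 1.80 and of at least 0.33. Ccnd1, the cyclin D1 of entry into the cycle, differed by 1.29, a call lost with a common median and interquartile range (0.98). Cholesterol synthesis and efflux held 4 rises and 0 falls among 23, and 2 rises without Ang II replicate 1 or against Ang II replicates 3 and 4 alone. Idi1, an isomerase of the sterol pathway, lay between 5.58 and 6.49 (median 6.32) with Hyd/HCTZ, against 4.03, 3.61, 5.30 and 4.78 with Ang II, a difference of 1.79 and of at least 1.22.

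Regulators of apoptosis moved both ways, with 3 rises and 2 falls among 24. Cycs, the gene of cytochrome c, differed by 1.53, with 8.65 ± 0.16 with Hyd/HCTZ and 7.13 ± 0.48 with Ang II. Bcl2, the survival gene, lay between 6.13 and 6.44 (median 6.29) with Hyd/HCTZ, against 7.57, 7.84, 7.74 and 7.82 with Ang II, a difference of -1.45, lost with a common array median (-0.95). Adhesion genes held 4 rises and 0 falls among 22: the tetraspanin Cd9 differed by 1.55 and the integrin ligand Icam1 by 1.18, the second lost against Ang II replicates 3 and 4 alone (0.995). Interferon-stimulated genes lay near the background, with 2 rises and 1 fall among 27; the fall was that of the antiviral gene Rsad2 (-1.17), lost without Ang II replicate 3 (difference -0.77, adjusted p = 0.0216).

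A block of 6617 probe sets without a gene symbol differed by at least 2-fold in 22.5%, and 18.7% of them lay without overlap between the groups. The block was defined by identifiers that come before the first annotated probe set. Among tested genes these shares were 12.7% and 38.4%. The tested genes had passed the limit of level and the block had not, so the shares are not measured alike.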
